A study of Mus musculus with 2 samples.

Results

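The latrophilin genes (Adgrl1, Adgrl2 and Adgrl3), the teneurin genes (Tenm1, Tenm2, Tenm3 and Tenm4) and the FLRT genes (Flrt1, Flrt2 and Flrt3) form a group of 10 synaptic adhesion genes, taken by name from the 53055 genes found in both tables of the study. They were read in 2 bulk RNA sequencing libraries of polyadenylated RNA from the brain of wild-type C57BL/6J mice, both titled male and 14 weeks old. The posterior library came from tissue placed to match posterior brain slices that the study imaged by MERFISH (multiplexed in situ imaging of RNA molecules), and the anterior library from tissue placed to match its anterior slices. Each position had 1 library, so no spread between animals could be measured and no test was made. The posterior and anterior reads were also quantified by different programs, so position, tissue piece and pipeline cannot be told apart. The sources used here do not say whether the tissue pieces came from 1 mouse or from several. All 10 genes were detected in both libraries and passed the filter on low values described below.

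Latrophilins are adhesion G protein-coupled receptors with a long extracellular region that starts with a lectin and an olfactomedin domain. Teneurins are large single-pass proteins with epidermal growth factor repeats, a beta-propeller and a barrel of repeats outside the cell. FLRTs are transmembrane proteins with leucine-rich repeats. Across a synapse, latrophilins on 1 cell bind teneurins and FLRTs on the other, and in the mouse hippocampus and cortex these contacts take part in choosing and building synapses. Short alternative exons are known to change the contacts: latrophilins carry a small insert between the lectin and olfactomedin domains, and teneurins carry one in the beta-propeller and another between epidermal growth factor repeats.

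The sequences below are those short exons, shown because the transcript results turn on whether they are present. They were read from the GENCODE M21 transcripts of mouse build GRCm38 (mm10), 5′ to 3′ on the strand of the gene, with the exon in capitals and the last 15 bases before it and the first 15 bases after it in lower case. All are coding exons that some annotated transcripts of the gene leave out.
Adgrl1, lectin-olfactomedin insert, chr8:83926262-83926276, plus strand: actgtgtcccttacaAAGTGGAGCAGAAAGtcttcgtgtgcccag
Adgrl2, lectin-olfactomedin insert, chr3:148860427-148860438, minus strand: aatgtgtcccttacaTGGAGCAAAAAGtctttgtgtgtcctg
Adgrl3, lectin-olfactomedin insert, chr5:81509724-81509738, plus strand: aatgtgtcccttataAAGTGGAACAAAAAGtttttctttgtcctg
Tenm1, beta-propeller insert, chrX:42648394-42648414, minus strand: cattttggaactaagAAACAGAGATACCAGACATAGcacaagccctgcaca
Tenm3, beta-propeller insert, chr8:48287133-48287153, minus strand: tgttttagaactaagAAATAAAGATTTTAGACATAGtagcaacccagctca
Tenm4, beta-propeller insert, chr7:96854717-96854737, plus strand: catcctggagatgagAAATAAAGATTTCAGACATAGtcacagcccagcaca
Tenm3, insert between growth factor repeats, chr8:48313238-48313264, minus strand: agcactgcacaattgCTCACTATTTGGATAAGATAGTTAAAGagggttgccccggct
Tenm4, insert between growth factor repeats, chr7:96805105-96805131, plus strand: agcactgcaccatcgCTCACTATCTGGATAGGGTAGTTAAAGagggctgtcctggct
The 15-base inserts of Adgrl1 and Adgrl3 were the same at 13 of 15 positions, and the insert of Adgrl2 was shorter, at 12 bases. In the beta-propeller insert of 21 bases, Tenm3 and Tenm4 were the same at 20 positions, Tenm1 and Tenm4 at 17, and Tenm1 and Tenm3 at 16. The 27-base inserts of Tenm3 and Tenm4 were the same at 24 positions.

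The posterior table held 147138183 estimated fragments, and 43558839 fragments were recovered from the FPKM of the anterior table, so posterior values carried 3.38 times the depth. Values are given on 2 scales. The fragment share is the number of a gene's fragments in every 1000000 fragments of protein-coding genes, written ppm, and it uses no gene length. FPKM divides fragments by length as well as by a library total, and it is the scale on which levels of different genes may be compared. The FPKM scale depends on how a length was set: the anterior table divided by 1 gene length that equalled the union of all M21 exons in 9 of the 10 genes, while posterior FPKM was divided by the effective length of each transcript. Differences are log2 of posterior over anterior after adding 0.5 to both, less the median of the 13339 protein-coding genes that reached an FPKM of 1 in at least 1 library. That median shift was 0.00298 for the fragment share and 0.63 for FPKM. Intervals are 95% and cover counting error only.

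Markers of regions differed between the libraries. Summed fragment share was 988 ppm in the posterior library against 170 in the anterior library for 10 thalamic relay neuron markers, all 10 of which were at least 2-fold higher. Of 10 hippocampal field markers, 7 were at least 2-fold higher (763 against 368 ppm summed). Of the 10 hypothalamic markers compared, 9 were at least 2-fold higher, with sums over the whole list of 11 of 322 and 2.73 ppm, and Gal, Npvf and Sim1 were at 0 in the anterior library. All 8 choroid plexus markers were at least 2-fold higher (722 against 3.37 ppm). In a list of 12 isocortical excitatory neuron markers, 4 were at least 2-fold lower and none at least 2-fold higher (1729 against 2779 ppm). By any amount 9 of them were lower and 3 higher. Of all compared genes, 8.19% were at least 2-fold higher and 1.84% at least 2-fold lower by share. The 6 general neuron markers summed to 6005 and 8054 ppm and the 6 markers of oligodendrocyte precursors to 277 and 189 ppm, with none of either list 2-fold apart. No marker was at 0 in the posterior library. The part of these regional differences in the values of the synaptic genes was not tested, and fewer cells of a type and less RNA per cell cannot be told apart in bulk tissue.

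Among the receptors, Adgrl1 was at nearly the same fragment share in both libraries, Adgrl2 was lower in the posterior library and Adgrl3 was higher there. Adgrl1 (chr8:83900105-83941954, plus strand), the most abundant of the 3, had 89712 posterior and 29096 anterior fragments, or 667 against 685 ppm. Its fold of 0.973 (0.960 to 0.986) left a log2 difference in share of -0.042, inside the quartiles of all compared genes. By level it stood 871st of 13339 genes in posterior FPKM and 419th in anterior FPKM, at 84.9 and 92.8.

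Adgrl2 (chr3:148815583-148990555, minus strand), which in the mouse hippocampus is known as a postsynaptic receptor in selected dendritic layers, had 12726 posterior and 6644 anterior fragments, or 94.6 against 157 ppm. This gave a fold of 0.605 (0.587 to 0.623) and a log2 difference in share of -0.73, and 3.67% of the compared genes had a lower one. On the FPKM scale the direction turned: its level was 26.5 against 12.8 in the anterior library, a centred log2 difference of 0.39. The anterior gene length of Adgrl2 was 4.35 times its mean posterior effective length, against a median of 1.87 over all compared genes.

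Adgrl3 (chr5:81020138-81825133, plus strand), a receptor for Flrt3 and teneurins at glutamatergic synapses, had 19788 posterior and 4908 anterior fragments, or 147 against 116 ppm. The fold was 1.27 (1.23 to 1.31) and the log2 difference in share 0.34. Its FPKM was 43.7 and 7.57, a centred log2 difference of 1.82, the largest of the 10 genes on that scale. Adgrl3 also had the largest length ratio of the 10, at 5.76. Both scales placed it higher in the posterior library, but with the posterior sum taken over coding transcripts only the log2 difference in share was 0.021.

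As a family the latrophilins held 909 ppm of posterior and 958 ppm of anterior fragments, a fold of 0.949 (0.938 to 0.960). The makeup of the family by fragments was 73.4% Adgrl1, 10.4% Adgrl2 and 16.2% Adgrl3 in the posterior library, while anterior fragments were 71.6% Adgrl1, 16.3% Adgrl2 and 12.1% Adgrl3. The ratio of Adgrl3 to Adgrl2 fragments was therefore 1.55 and 0.739, and the posterior ratio was 2.10 times the anterior one (2.02 to 2.20), or 2.79 times by FPKM. Adgrl2 and Adgrl3 changed places in this order, and both scales gave the same direction for their ratio.

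The 4 teneurins, the presynaptic ligands, each had a higher fragment share in the posterior library, and all but Tenm2 kept a positive difference under every alternative tried. Tenm1 (chrX:42527866-43429126, minus strand) had 16278 posterior and 3267 anterior fragments, or 121 against 77.0 ppm, a fold of 1.57 (1.51 to 1.63). Its log2 difference was 0.65 by share and 0.60 by FPKM, where its levels were 12.5 and 5.04. Tenm1 was the lowest of the teneurins by FPKM in both libraries.

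Tenm2 (chr11:36006656-37235964, minus strand), the best-studied ligand of Adgrl1, had 16145 posterior and 4240 anterior fragments, or 120 against 99.9 ppm. The fold was 1.20 (1.16 to 1.24), the smallest of the 4, and the log2 difference in share was 0.26. By FPKM, at 16.9 and 10.1, its centred log2 difference was 0.082, and -0.0041 when posterior transcripts under 1000 bases were left out. Both scales placed Tenm2 higher in the posterior library, and the sign turned only when the FPKM scale and the leaving out of short transcripts were combined.

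Tenm3 (chr8:48227682-48843951, minus strand), known in the mouse for pairing with Adgrl2 in the wiring of hippocampal and visual circuits, had 17605 posterior and 3021 anterior fragments, or 131 against 71.2 ppm. Its fold of 1.84 (1.77 to 1.91) was the largest of the 10 genes, with a log2 difference in share of 0.87, and 90.2% of the compared genes had a lower one. Its FPKM was 18.1 and 8.08, a centred log2 difference of 0.48. Both scales placed Tenm3 higher in the posterior library, with the smaller size by FPKM.

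Tenm4 (chr7:96171246-96911093, plus strand), also required for myelination in the mouse, had 27143 posterior and 6787 anterior fragments, or 202 against 160 ppm, a fold of 1.26 (1.23 to 1.30). The log2 difference was 0.33 by share and 0.78 by FPKM, where the levels were 24.3 and 8.84. It held more fragments than any other teneurin in both libraries, with 35.2% of the posterior and 39.2% of the anterior fragments of the family. Summed, the teneurins held 574 and 408 ppm, a fold of 1.41 (1.38 to 1.43).

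The 3 FLRTs, which bind latrophilins through their leucine-rich repeats, had lower fragment shares in the posterior library, though the interval of Flrt3 included equality. Flrt2 (chr12:95692226-95785215, plus strand) had 10335 posterior and 5144 anterior fragments, or 76.8 against 121 ppm, a fold of 0.634 (0.613 to 0.656). Its log2 difference was -0.66 by share and -1.22 by FPKM, where its levels were 12.0 and 18.2. Only 4.33% of the compared genes had a lower difference in share.

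Flrt1 (chr19:7092014-7105729, minus strand) had 5622 posterior and 2226 anterior fragments, or 41.8 against 52.4 ppm, a fold of 0.797 (0.759 to 0.838). Its log2 difference was -0.33 by share and -1.20 by FPKM, with levels of 6.86 and 10.4. Flrt1 and Flrt2 were thus lower on both scales. By FPKM they were past 2-fold only after the median shift of 0.63 was subtracted. Neither gene has an annotated transcript under 1000 bases. With such posterior transcripts of other genes left out, the centring shift was 0.34. The FPKM differences of Flrt1 and Flrt2 were then -0.91 and -0.93, short of 2-fold.

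Flrt3 (chr2:140650914-140671469, minus strand), a ligand of Adgrl3 and of Unc5 receptors, had 3551 posterior and 1180 anterior fragments, or 26.4 against 27.8 ppm. The fold was 0.950 (0.889 to 1.02), so a difference in share was not detectable at this depth. Its log2 difference was -0.076 by share, -0.63 by FPKM with levels of 6.66 and 6.64, and 0.036 by share with coding transcripts only in the posterior sum. Summed, the FLRTs held 145 and 201 ppm, a fold of 0.720 (0.702 to 0.739), and Flrt2 gave 53.0% of those posterior and 60.2% of those anterior fragments.

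**Figure D1:**
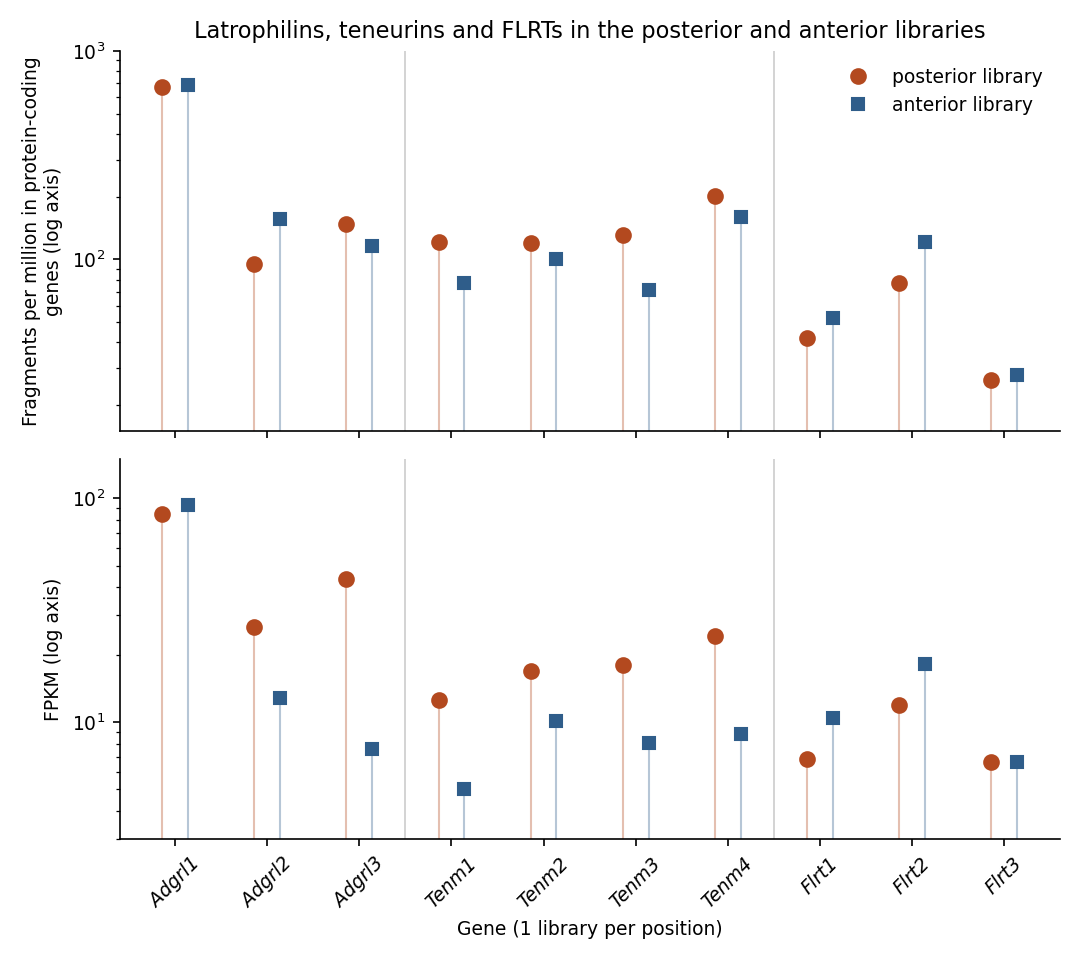
Fragment share in ppm of the fragments in protein-coding genes (upper panel) and FPKM (lower panel), both on log axes, for the 10 genes in the posterior library (circles) and the anterior library (squares), 1 library each. In the upper panel the 4 teneurins lie higher in the posterior library and Adgrl2 and Flrt2 lie lower, while in the lower panel Adgrl3 reaches 43.7 in the posterior library against 7.57 in the anterior library.

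None of the 10 genes was 2-fold apart by fragment share, where 8.19% of the 13339 compared genes were at least 2-fold higher and 1.84% at least 2-fold lower in the posterior library. By FPKM, after centring, Adgrl3 was at least 2-fold higher, against 14.5% of all genes, and Flrt1 and Flrt2 were at least 2-fold lower, against 7.11%. By share 5 genes were higher and 5 lower, by FPKM 6 were higher and 4 lower, and Adgrl2 was the gene that changed sides. The median log2 difference of the 10 was 0.11 by share, where the quartiles of all genes were -0.21 and 0.32, and 0.24 by FPKM, where the quartiles were -0.51 and 0.61. Tenm3, Tenm1, Adgrl3 and Tenm4 lay above the upper quartile by share, and Adgrl2, Flrt2 and Flrt1 below the lower one.

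The differences on the FPKM scale went in part with the length ratio, anterior gene length over posterior mean effective length. The 4 genes with ratios of at least 2.00 (Adgrl3 at 5.76, Adgrl2 at 4.35, Tenm4 at 2.77 and Tenm1 at 2.00) had FPKM differences of 1.82, 0.39, 0.78 and 0.60. The genes with ratios of 1.05 to 1.34 (Flrt1, Adgrl1, Flrt2 and Flrt3) had FPKM differences of -1.20, -0.76, -1.22 and -0.63. Tenm2 and Tenm3 had ratios of 1.77 and 1.55, near the median of all genes, and FPKM differences of 0.082 and 0.48. The order was not strict, since Tenm3 lay above Adgrl2 by FPKM difference with a smaller ratio. The length ratio enters the FPKM difference by construction and does not enter the fragment share.

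**Figure D2:**
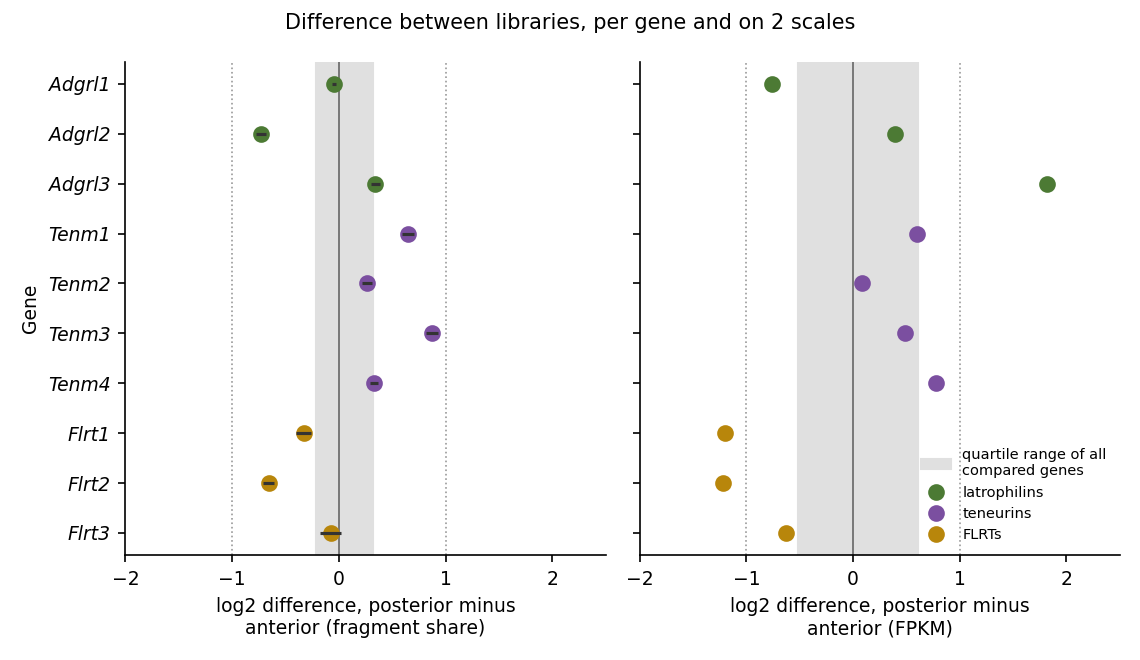
Log2 difference of each gene, posterior minus anterior, by fragment share (left, with 95% counting intervals) and by FPKM (right), centred on the median of all compared genes. Grey bands span the quartiles of the 13339 genes and dotted lines mark 2-fold. By share every gene lies inside the 2-fold lines, whereas by FPKM Adgrl3 lies at 1.82 and Flrt1 and Flrt2 lie at -1.20 and -1.22.

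The order of levels within a library was read by FPKM, since it compares genes of different length. In the posterior library Adgrl1 (84.9) was followed by Adgrl3 (43.7), Adgrl2 (26.5), Tenm4 (24.3), Tenm3 (18.1), Tenm2 (16.9), Tenm1 (12.5), Flrt2 (12.0), Flrt1 (6.86) and Flrt3 (6.66). Of the neighbours in that order, the interval of the ratio included 1 for Flrt1 and Flrt3 alone (1.03, 0.986 to 1.07). In the anterior library Adgrl1 (92.8) stood 5.09 times above the next gene, Flrt2 (18.2), which was followed by Adgrl2 (12.8), Flrt1 (10.4), Tenm2 (10.1), Tenm4 (8.84), Tenm3 (8.08), Adgrl3 (7.57), Flrt3 (6.64) and Tenm1 (5.04). There the ratio of Flrt1 to Tenm2 included 1 (1.03, 0.976 to 1.08). When posterior fragments were divided by the anterior gene length, the posterior order became Adgrl1 (71.0), Tenm3 (11.7), Tenm2 (9.56), Flrt2 (9.10), Tenm4 (8.78), Adgrl3 (7.58), Flrt1 (6.52), Tenm1 (6.23), Adgrl2 (6.09) and Flrt3 (4.96). In that order the interval of the ratio included 1 for Tenm1 over Adgrl2 (1.02). Adgrl1 led and Flrt3 was last or next to last in each order, and the place of Adgrl3 moved from the second to the sixth with the length used. Adgrl1 accordingly made up 54.8% of posterior and 82.0% of anterior latrophilin FPKM, but 83.9% in the posterior library on the anterior gene length.

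Transcripts were resolved in the posterior library, whose table lists 105 annotated transcripts of the 10 genes, 66 of them protein coding and 24 with no fragments. Adgrl3 had 35 annotated transcripts, a number reached by 11 of the 13339 genes (0.0825%), and Adgrl2 had 20, reached by 1.39%, where the median gene had 5. The FLRTs had 1, 2 and 3 transcripts (Flrt1, Flrt2 and Flrt3), and each FLRT had 1 distinct coding sequence, of 2022, 1980 and 1947 bases.

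In Adgrl1 the transcript Adgrl1-207 held 82.6% of the fragments and 75.1% of the FPKM, and Adgrl1-201 held 10.8% of the FPKM. Teneurins were led in the same way by 1 long coding transcript each: Tenm1-203 held 92.8% of fragments, Tenm3-201 88.8%, Tenm2-202 80.7% and Tenm4-203 78.6%. Over all genes with at least 2 transcripts the median leading share was 82.7% of fragments, against 82.6% for the members. By FPKM these leading shares were lower, at 65.3% for Tenm1, 67.8% for Tenm3, 54.5% for Tenm2 and 46.3% for Tenm4.

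Each teneurin also had a transcript that took over 10% of its FPKM with few of its fragments. Tenm1-204, a processed transcript of 1143 bases, took 24.8% of Tenm1 FPKM with 2.39% of its fragments. Tenm2-207, a processed transcript of 368 bases, took 23.6% of FPKM with 0.344% of fragments, while Tenm2-201, a coding transcript of 8298 bases, took 13.0% of FPKM with 16.0% of fragments. Tenm3-202 (639 bases) and Tenm4-209 (704 bases) took 12.7% and 22.0% of FPKM with 0.675% and 1.21% of fragments. Apart from Tenm2-201 these transcripts were short, and the FPKM divides by their small effective length.

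Adgrl2 and Adgrl3 had no such leader. The transcript with most fragments was Adgrl2-214 at 24.0% and Adgrl3-211 at 24.5%. Adgrl2-203, a coding transcript of 2151 bases and 3 exons, had the highest FPKM share of Adgrl2 at 26.3%, followed by Adgrl2-214 at 17.9% and Adgrl2-212 at 12.2%. For Adgrl3 the highest was Adgrl3-229 at 25.6%, a processed transcript of 241 bases with 56.9 estimated fragments, or 0.287% of the gene. Without that transcript's weight the fragments lay mainly in the coding transcripts Adgrl3-211, Adgrl3-219 (18.7%) and Adgrl3-220 (13.0%) and the retained-intron transcript Adgrl3-228 (8.10%). Adgrl3 was the member with the smallest protein-coding part, 73.9% of fragments, with 20.4% in retained-intron transcripts and 5.02% in targets of nonsense-mediated decay. Adgrl2 had 91.1% in coding and 8.88% in retained-intron transcripts, and the other 8 genes had at least 94.6% in coding ones, where the median of all genes was 96.8%.

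Transcripts of Flrt2 and Flrt3 varied outside the coding sequence. Flrt2-201 held 87.8% of fragments and 75.6% of FPKM and Flrt2-202 held 24.4% of FPKM. Flrt3-202 held 91.0% of fragments and 89.3% of FPKM and Flrt3-201 held 10.7% of FPKM. Flrt1-201 was the sole annotated transcript of Flrt1.

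**Figure D3:**
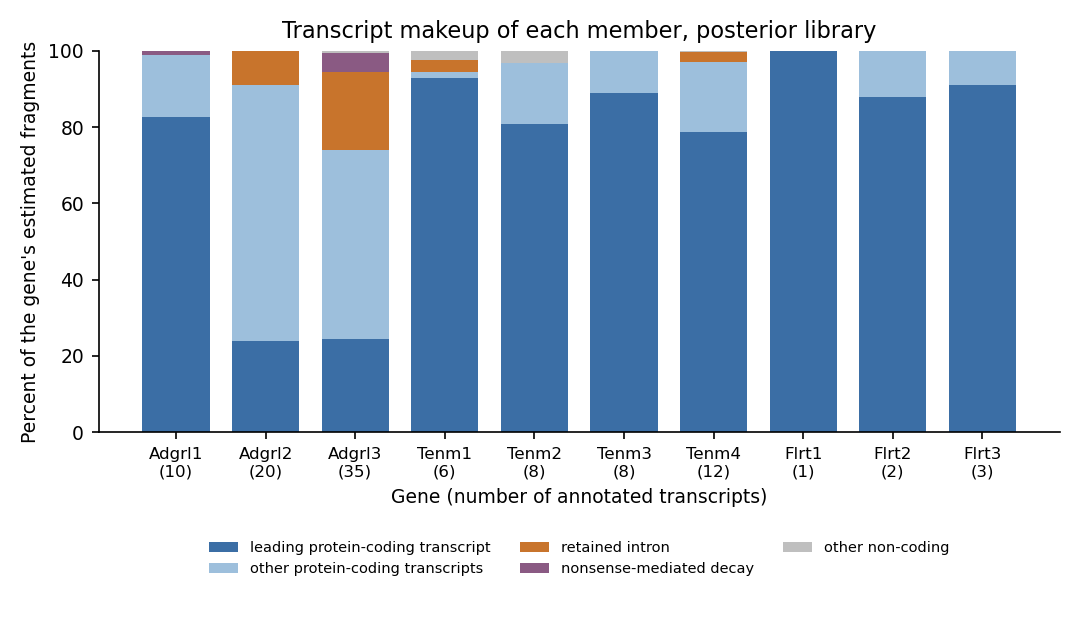
Percent of each gene's estimated fragments in the posterior library by transcript class, with the number of annotated transcripts under each gene. The leading coding transcript holds at least 78.6% of fragments in 8 genes, but 24.0% in Adgrl2 and 24.5% in Adgrl3, where retained-intron transcripts hold 8.88% and 20.4%.

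Short coding exons of at most 30 bases, present in some and skipped in other annotated transcripts, numbered 14 in 6 of the 10 genes. Inclusion was read in the posterior library as the percent of FPKM in transcripts with the exon, out of those with or without it. Of the 14, 8 were above 50% inclusion, and 49.7% of the 803 such exons of all compared genes were. Among them 13 had a length that is a multiple of 3 and so keep the reading frame, against 75.1% of the 803. These percentages carry no interval, because the estimation error that Salmon attaches to a transcript was not used.

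The lectin-olfactomedin insert of latrophilins, whose sequences are given above and whose presence in Adgrl1 is known to lower its affinity for teneurins, was included at different levels in the 3 receptors. Inclusion was 23.5% in Adgrl1, 84.2% in Adgrl2 and 75.6% in Adgrl3. By fragments in place of FPKM it was 17.3%, 82.1% and 85.4%. By these estimates Adgrl1 mostly lacked the insert and Adgrl2 and Adgrl3 mostly had it, within the limits of the annotation given next. In Adgrl2 most of the FPKM without the insert (1.79 of 2.12) lay in Adgrl2-220, whose 5′ end is at 148990555. The Adgrl2 transcripts with the insert have their 5′ ends from 148954658 to 148954787, so its estimate there is tied to that for the 5′ end. In Adgrl3 the insert was absent mainly from the retained-intron transcripts Adgrl3-231 and Adgrl3-226, and among coding transcripts its inclusion was 100%. The sole coding Adgrl3 transcript annotated without it, Adgrl3-201, holds an 11-base exon instead and had no fragments. The high inclusion in Adgrl3 thus depends on which transcripts are annotated. In Adgrl1 the transcript without it, Adgrl1-207, is also the one with the longest 3′ end (8181 bases in all, ending at 83941954, where the others end by 83940011), so that the estimate for the exon cannot be told apart from that for the 3′ end.

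The latrophilins held further short exons. A 27-base exon was included at 18.4% in Adgrl2 (chr3:148827212-148827238) and 40.8% in Adgrl3 (chr5:81757986-81758012), and the copies were the same at 21 of 27 positions. An 18-base exon was included at 99.3% in Adgrl1 (chr8:83937916-83937933), 5.29% in Adgrl2 (chr3:148820451-148820468) and 6.84% in Adgrl3 (chr5:81792361-81792378). In Adgrl3 it was 16.0% by fragments and 13.2% of FPKM among coding transcripts. Of the FPKM of 23.7 without it in Adgrl3, 11.2 lay in Adgrl3-229. In Adgrl2 and Adgrl3 a 52-base exon starts at the same base. Transcripts with that longer form counted as neither with nor without the 18-base exon. These 18-base exons were less alike: Adgrl2 and Adgrl3 were the same at 15 of 18 positions, Adgrl1 and Adgrl2 at 12, and Adgrl1 and Adgrl3 at 10. An 11-base exon of Adgrl3 (chr5:81492423-81492433) was in 1 transcript, Adgrl3-201, which had no fragments. It is the 1 short exon whose length is not a multiple of 3. Adgrl3-201 lacks the 15-base insert, but its coding length of 4629 bases equals that of Adgrl3-202, which holds the insert. The exon length alone thus does not show a broken reading frame. At both the insert and the 18-base exon, Adgrl2 and Adgrl3 had values on the same side of 50% and Adgrl1 on the other. For the 18-base exon, the 1 Adgrl1 transcript without it was Adgrl1-203, of 639 bases with 29.2 fragments. The 1 Adgrl2 transcript with it was Adgrl2-210, of 3005 bases. The contrast at that exon thus depends on which transcripts are annotated.

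By these estimates Tenm1, Tenm3 and Tenm4 mostly included their inserts. The beta-propeller insert, which in Tenm2 is known to set whether latrophilins bind in trans, was included at 91.0% in Tenm3 and 90.5% in Tenm4. In Tenm1 it was 100%, since the 1 transcript without it had no fragments. The matching 21-base exon of Tenm2 (chr11:36054926-36054946) is in 3 annotated transcripts and skipped by none, so its inclusion could not be read from this annotation. The insert between growth factor repeats was included at 91.5% in Tenm3 and 78.4% in Tenm4, or 91.8% and 90.7% by fragments. In Tenm3 both inserts are in Tenm3-201 and missing from Tenm3-206, and in Tenm4 both are in Tenm4-203 and Tenm4-202 and missing from Tenm4-201, so among coding transcripts the 2 exons of a gene share their estimate, 91.5% in Tenm3 and 90.5% in Tenm4. The retained-intron transcript Tenm4-212, at an FPKM of 2.20, also lacks the 27-base exon and accounts for its lower value over all transcripts. Most of the Tenm4 FPKM with the inserts (11.3 of 12.9) lay in Tenm4-203, which has the longest 3′ end, at 96911093. Tenm4-202 and Tenm4-201 end at 96908554 and 96908569 and had FPKM of 1.63 and 1.35. The 3′ ends of Tenm3-201 and Tenm3-206 also differ, at 48227682 and 48227926. In both genes the exon estimates thus cannot be told apart from those for the 3′ end.

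**Figure D4:**
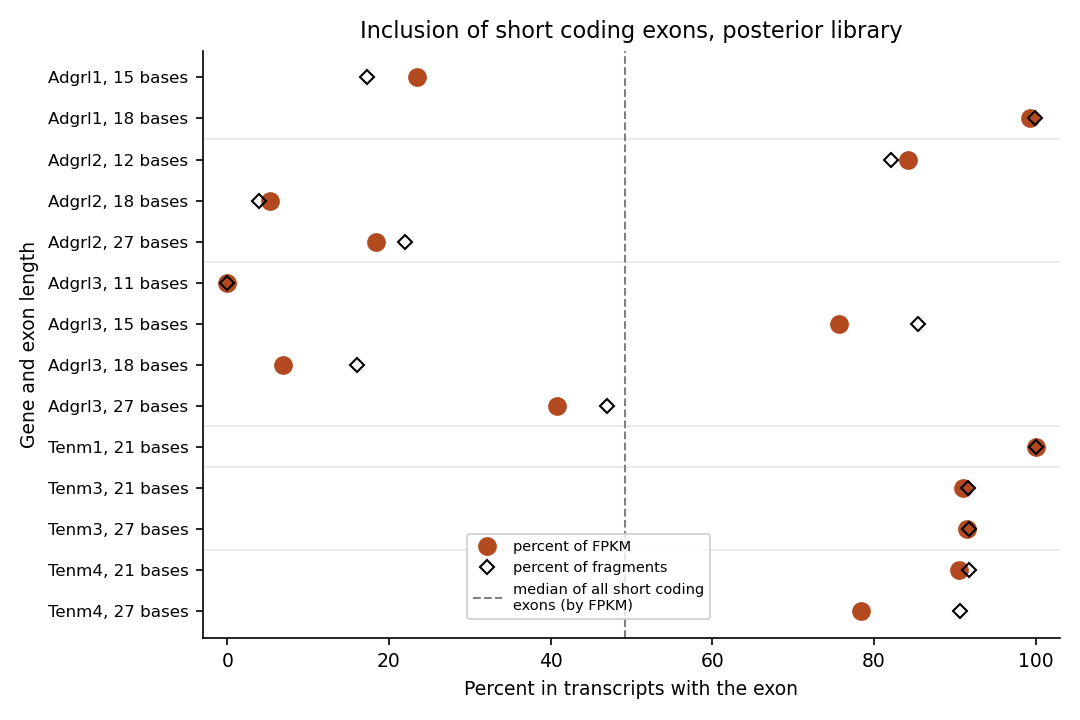
Percent in transcripts with the exon for the 14 short coding exons of the latrophilins and teneurins in the posterior library, by FPKM (filled circles) and by fragments (open diamonds). The dashed line marks 49.2%, the median of all 803 short coding exons. The 15-base exon of Adgrl1 lies at 23.5%, while the 12-base exon of Adgrl2 and the 15-base exon of Adgrl3 lie at 84.2% and 75.6%, and the teneurin exons lie at 78.4% or above.

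Of 24 genes known as binding or signalling partners of the 3 families, 2 were at least 2-fold higher by share in the posterior library (background 8.19%) and none at least 2-fold lower. Their median log2 difference in share was 0.38, where the median of all genes is 0. By FPKM, 7 were at least 2-fold higher (background 14.5%) and the median was 0.44. Gnas, a G protein alpha subunit that latrophilins can signal through, was past 2-fold on both scales: 1323 against 133 ppm, a fold of 9.97 (9.70 to 10.2), and 937 against 13.8 FPKM. Overlap of Gnas with other genes was not checked. Position and pipeline cannot be told apart for this difference. Gpc3, a glypican, was the other one, at 5.71 and 2.33 ppm (fold 2.45, 1.98 to 3.05), with a log2 difference of 0.49 by FPKM. Gnas was also the highest of the list by posterior FPKM, and Shank1, a postsynaptic scaffold, by anterior FPKM (117 and 70.7).

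The FLRT receptors of the Unc5 family, which mediate repulsion in migrating neurons, were split. Unc5b, Unc5c and Unc5d had log2 differences in share of 0.84, 0.71 and 0.43 and Unc5a of -0.19. By FPKM the differences were 0.0050, 0.76, -0.26 and -0.90 in the same order, so Unc5d changed sides. Of the postsynaptic scaffolds that bind the latrophilin tail, Shank3 stood at 0.85 by share, Shank1 at 0.33 and Shank2 at 0.0985. By FPKM they stood at 0.85, 0.090 and -0.25. Fgfr1, Fgfr2 and Fgfr3, growth factor receptors that FLRTs bind, had 0.67, 0.47 and 0.50 by share and 1.12, 1.52 and 0.67 by FPKM.

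**Figure D5:**
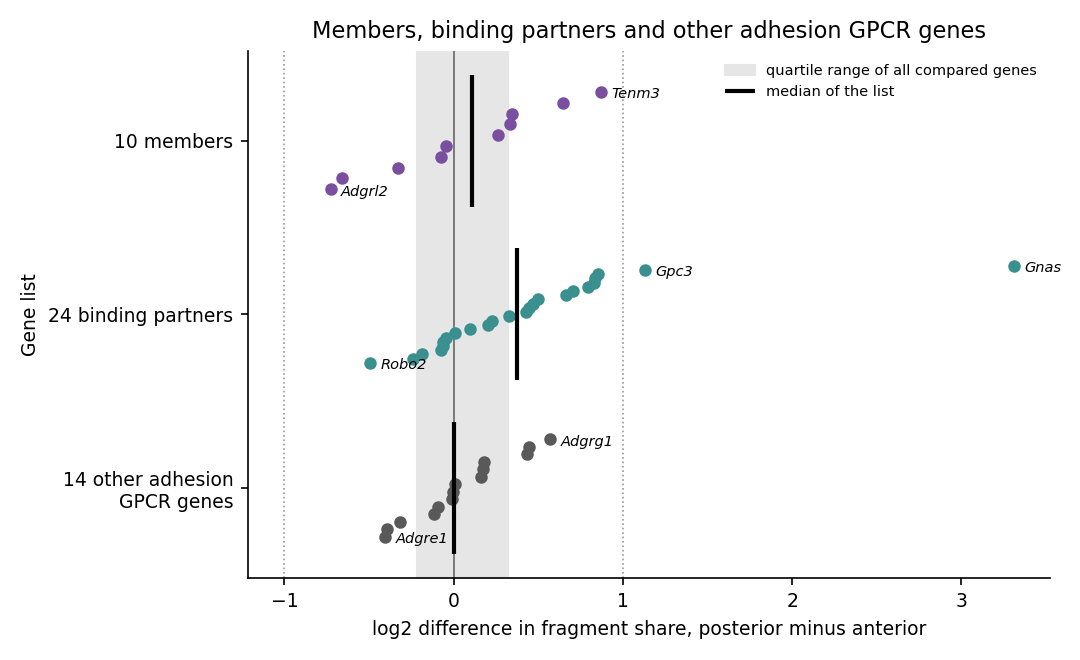
Log2 difference in fragment share, posterior minus anterior, of the 10 genes, their 24 binding partners and 14 other adhesion G protein-coupled receptor genes, with list medians as bars, the quartiles of all genes as a grey band and 2-fold as dotted lines. Medians are 0.11 for the 10 genes and 0.38 for the partners, and Gnas at 3.31 and Gpc3 at 1.13 are the points past 2-fold.

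The other adhesion receptors gave a setting for the latrophilins within their own class. Of 18 genes, 14 passed the filter on low values, and none of those was 2-fold apart by share in either direction (background 8.19% and 1.84%). By share 7 were higher and 7 lower, and their differences ran from -0.40 (Adgre1) to 0.57 (Adgrg1), a range that Adgrl2 at -0.73 lay below. By FPKM, Adgrb3 was at least 2-fold higher (1.01, background 14.5%) and Celsr2 and Adgre1 at least 2-fold lower (-1.01 and -1.05, background 7.11%). All of these lay close to the 2-fold line. Adgrb1, a receptor found at excitatory synapses, was the highest by posterior FPKM at 158 against 78.5, and Adgrb2, a related receptor, by anterior FPKM at 93.6 and 90.9. In the anterior library the level of Adgrl1, 92.8, was thus beside that of the highest of these genes.

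Overlap with other genes bears on some of these counts. In M21, exons of genes on the opposite strand covered 15.6% of the exon bases of Adgrl1 (Gm10644, Gm44330 and Gm44450), 8.91% of Adgrl3 (Gm16054) and 8.25% of Tenm1 (Sh2d1a), and at most 4.70% of the others. No exon base was shared with another gene on the same strand. The sources used here do not say whether either pipeline counted by strand, so reads of these antisense genes cannot be told apart from those of the members. Words of 31 bases that also occur in transcripts of other genes made up at most 0.650% of any member.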

How the data were processed

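Polyadenylated RNA of 1 posterior and 1 anterior piece of mouse brain was sequenced as paired reads. The authors deposited for the posterior piece estimated counts per transcript, which need not be whole, with TPM and effective length, made with Salmon against GENCODE transcripts per the labels' protocols. For the anterior piece they deposited FPKM per gene with gene lengths, aligned with HISAT2 2.0.5 to mm10 per the submitters' processing notes. The sources used here do not give the counting program, its use of strand or the version of Salmon. The posterior table is named for FPKM but holds TPM, whose sum is 1000000, and estimated counts, so posterior FPKM was computed from estimated counts and effective length.

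Anterior fragments were recovered as FPKM times gene length, whole multiples of 27.4 for 100% of 54532 genes within 0.001. Genes were joined by identifier. Ratios of fragment shares have exact Clopper-Pearson intervals from counts rounded to whole fragments, shares within a family have Wilson intervals, and the ratio of Adgrl3 to Adgrl2 between libraries has a log-normal interval from the 4 counts. Percentages of transcripts were computed from posterior FPKM and from fragments, and M21 matched 105 of 105 member transcripts by identifier and length. The script was tested on simulated data. Python 3.11.15, SciPy 1.17.1 and pandas 2.3.3 were used. With 1 library per position there was no test and no p-value.

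The members and the lists of partners, adhesion receptors and markers were chosen with earlier results of these data known. All 10 members are named, and so are transcripts with at least 10% of a member's FPKM. From the partner and adhesion receptor lists, genes past 2-fold on both scales and those with the highest FPKM are named. Gpc3, Adgrb3, Celsr2, Adgre1 and Adgrg1 and the Unc5, Shank and FGF receptor genes were picked after their values were seen. Some partner genes are not reported here by name. Alternatives changed the scale, the posterior transcripts summed, the pseudocount, the filter, the centring, the denominator and the length used.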

Additional observations from a re-analysis of the deposited data

How the results depend on the processing

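Of the main results, 44 values under an alternative stayed within the counting interval of the reported one, or for counts of genes within 1.5 times, and 20 moved. On the FPKM scale 1 member was at least 2-fold higher and 2 were at least 2-fold lower in the posterior library, the members' median log2 difference was 0.24, 7 binding partners were at least 2-fold higher, and of the other adhesion receptors 1 was higher and 2 were lower. The background on that scale was 14.5% of genes at least 2-fold higher and 7.11% at least 2-fold lower. A further alternative, chosen after seeing the data, was the FPKM scale with posterior transcripts under 1000 bases left out (centring shift 0.34). Its background over 12530 genes was 11.4% at least 2-fold higher and 5.19% at least 2-fold lower. There 1 member, 7 partners and 1 other adhesion receptor were at least 2-fold higher. No member and no other adhesion receptor was 2-fold lower, and the members' median was 0.24. With coding transcripts only in the posterior sum the members' median was 0.045, and the folds of the teneurins and FLRTs were 1.46 and 0.771. With all fragments as denominator the folds were 0.890 for latrophilins, 1.32 for teneurins and 0.675 for FLRTs. With FPKM of at least 5, 1 partner was 2-fold higher (background 6.24%), and with no filter 2 other adhesion receptors were (background 6.93%). The median leading transcript share over the members was 82.6% by fragments and 75.6% among coding transcripts, against 65.3% by FPKM. Of the values of single genes, families' shares and exons, 66 moved and 70 did not. The causes were not tested, other than that fewer genes or transcripts enter by construction. No paired analysis was possible because each position had 1 library. Depth limits Flrt3, whose interval included equality.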
